A study of Homo sapiens with 12 samples.

Results

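The zinc finger genes of chromosome 19 are described here through the accessibility of their ends in HT1080 cells, an established human fibrosarcoma line. Members were the protein-coding genes of chromosome 19 in the RefSeq table (GRCh38.p14) whose symbol begins with ZNF and a number. They numbered 250 of 20037 protein-coding genes on the assembled chromosomes. Of these, 240 carry a plain number and 10 carry an added letter or name, including read-through genes that share an end with another member. A member was counted as accessible where a deposited peak had its summit, the position of highest signal, at most 1000 bp from either end of the gene.

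The study used ATAC-seq, in which a transposase cuts and tags open chromatin, on cells in collagen of different concentrations. For 48 h the cells sat in collagen I, whose concentration was 0.3 mg/mL in the low group, 1.0 mg/mL in the medium group and 1.7 mg/mL in the high group. Each group has 4 libraries. All 3 groups, and so all 12 libraries, received the matrix metalloproteinase inhibitor GM6001 at 20 µM. The peak list is pooled over the series and has no column for a library or a concentration, so no concentrations are compared below and no value has a replicate error. Depth per library is unknown.

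Most of these genes encode C2H2 zinc finger proteins, in which a row of fingers reads DNA, often next to a KRAB domain. The KRAB domain binds TRIM28, which brings in the histone methyltransferase SETDB1 and HP1 proteins, and many such proteins silence transposable elements. The genes arose by tandem duplication and lie in clusters. In many cell types their own 3′ exons carry H3K9 trimethylation, a mark of heterochromatin.

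The sequences printed here are the 250 bases before the start of 5 members, from the RefSeq promoter table (GRCh38.p14), written 5′ to 3′ with every CpG in capitals. They show related promoters of which 1 had a summit at its start and the other had none, and the promoter with the highest enrichment of all members. The pairs were chosen after the values were seen, and only among mixed pairs, with a summit at 1 start and none at the other. Each was the most alike mixed pair of its cluster in which the member without a summit had none within 10 kb of its gene ends.
ZNF726, chr19:23914636-23914885, plus strand: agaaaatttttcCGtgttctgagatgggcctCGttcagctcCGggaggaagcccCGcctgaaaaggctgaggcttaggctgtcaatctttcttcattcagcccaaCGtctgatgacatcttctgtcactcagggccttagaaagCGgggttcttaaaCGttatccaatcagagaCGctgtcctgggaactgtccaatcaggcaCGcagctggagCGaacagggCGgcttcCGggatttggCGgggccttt
ZNF91, chr19:23395472-23395721, minus strand: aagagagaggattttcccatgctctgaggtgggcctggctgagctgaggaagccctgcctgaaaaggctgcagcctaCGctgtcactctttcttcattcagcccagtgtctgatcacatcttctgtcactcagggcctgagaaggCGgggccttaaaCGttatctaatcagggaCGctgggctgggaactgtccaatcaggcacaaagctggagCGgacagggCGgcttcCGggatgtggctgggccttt
ZNF701, chr19:52570037-52570286, plus strand: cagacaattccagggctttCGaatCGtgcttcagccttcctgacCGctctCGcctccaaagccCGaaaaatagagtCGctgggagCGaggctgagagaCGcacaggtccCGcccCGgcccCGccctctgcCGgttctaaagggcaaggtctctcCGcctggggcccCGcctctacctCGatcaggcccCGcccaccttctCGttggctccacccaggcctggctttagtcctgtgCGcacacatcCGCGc
ZNF468, chr19:52857620-52857869, minus strand: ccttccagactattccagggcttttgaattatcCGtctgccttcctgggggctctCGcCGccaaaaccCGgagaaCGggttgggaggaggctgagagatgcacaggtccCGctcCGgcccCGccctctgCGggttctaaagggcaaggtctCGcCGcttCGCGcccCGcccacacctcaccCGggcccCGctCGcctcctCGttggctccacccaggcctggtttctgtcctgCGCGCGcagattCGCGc
ZNF585A, chr19:37172696-37172945, minus strand: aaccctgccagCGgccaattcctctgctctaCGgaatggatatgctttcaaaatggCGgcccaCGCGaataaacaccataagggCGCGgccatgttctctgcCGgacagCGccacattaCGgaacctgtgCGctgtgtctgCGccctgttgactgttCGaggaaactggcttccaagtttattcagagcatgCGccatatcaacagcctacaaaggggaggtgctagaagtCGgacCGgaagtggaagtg

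The ZNF726 and ZNF91 windows, both from the cluster next to the centromere, were identical at 257 of 306 alignment columns (84.0%) when the full 300-base windows were aligned. ZNF726 had a summit at its start with an enrichment, the fold over the local background as deposited, of 13.26. ZNF91, a repressor of SVA retrotransposons, had its nearest summit 272730 bp from an end. ZNF701 and ZNF468, from 1 long-arm cluster, were identical at 246 of 305 columns (80.7%). ZNF701 had an enrichment of 11.05, whereas the summit nearest ZNF468 was 89441 bp away. The 250 bases of ZNF726 hold 13 CpG and those of ZNF91 hold 7, while ZNF701 has 20 and ZNF468 has 23. ZNF585A, with 16 CpG, had the highest enrichment of all members, 18.54. The most alike of all mixed pairs was ZNF587B and ZNF814 (89.5% identity), with an enrichment of 3.47 at ZNF587B. The summit nearest an end of ZNF814 was 11520 bp away, but the start compared here lay 16091 bp from the gene end. ZNF814 had no summit at that start and 1 inside the gene, with an enrichment of 3.71. Pairs of the same state could be more alike. In the cluster of ZNF91, identity reached 91.0% with both summits, 87.4% with neither and 84.0% in mixed pairs. In the cluster of ZNF701 it reached 86.0%, 75.1% and 83.1%. In the cluster of ZNF587B it reached 81.3%, 60.6% and 89.5%, so there the mixed pair was the most alike.

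Of the 250 members, 153 (61.2%) had a summit at an end and 97 had none. Among all protein-coding genes the share was 65.7%, and among the other 1201 coding genes of chromosome 19 it was 63.4% (761 genes). The members' share thus lay near the background. ZNF genes on other chromosomes stood at 79.8% (213 of 267). The order of members and other chromosome 19 genes depended on the window: with 500 bp it was 59.6% of members and 53.1% of the others, and with 2500 bp it was 66.0% and 78.2%. These shares are descriptions of 1 pooled list, and the differences were not tested.

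Where a member had a summit, it was mostly a strong one. The highest enrichment per accessible member had a median of 13.20, with quartiles of 9.38 and 15.05 and a range of 1.83 to 18.54. The median was 11.73 over all accessible coding genes and 10.88 over those of the rest of chromosome 19. An enrichment of at least 10 was reached by 111 of the 153 accessible members (72.5%), against 60.4% of all accessible coding genes and 52.8% of those elsewhere on chromosome 19. Values under 5 were held by 16 accessible members (10.5%), against 18.5% and 25.2%. Pileup, the number of overlapping fragments at the summit as recovered from the deposited values, pointed the other way. Its median was 545 for members, 740 for all accessible coding genes and 738 for accessible ZNF genes on other chromosomes. In enrichment those ZNF genes were close to the members, with a median of 12.85. Of them, 73.2% reached 10 and 11.3% were under 5, so strong summits were not particular to chromosome 19. The local background under the members' summits had a median of 42.0 fragments. In pooled bulk chromatin, fewer cells with an open site and a less open site in every cell cannot be told apart.

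**Figure D1:**
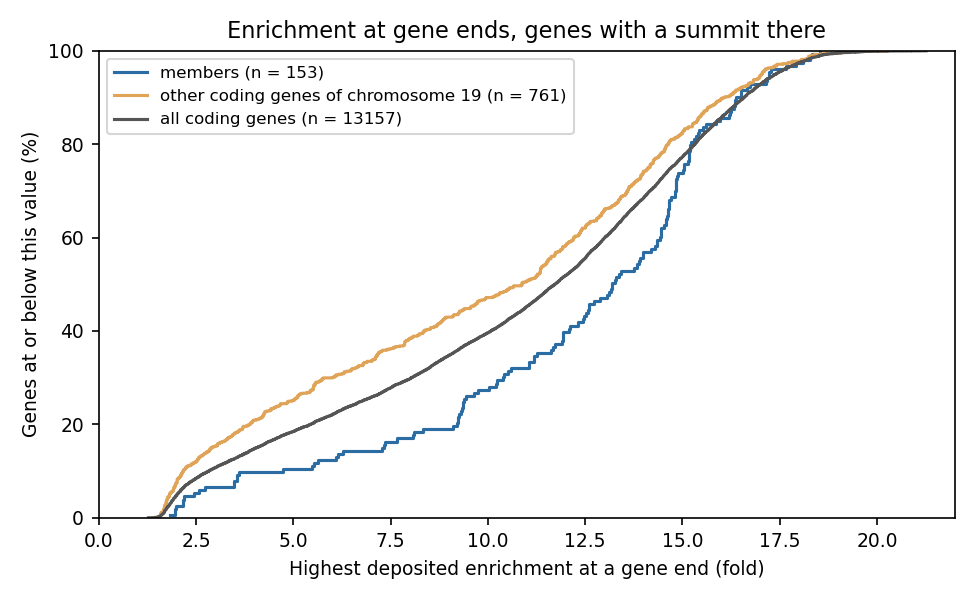
Cumulative share of accessible genes (y axis, percent) at or below each value of the highest deposited enrichment at a gene end (x axis, fold), for 153 members, 761 other coding genes of chromosome 19 and all 13157 accessible coding genes. The members' curve lies to the right over most of the range, with medians of 13.20, 10.88 and 11.73, and meets the others near the top.

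The 10 members with the highest enrichment came from 5 clusters. ZNF585A (18.54, pileup 765) was followed by ZNF548 (18.33, pileup 1805) and ZNF549 (18.29, pileup 931). ZNF527 had 18.11, ZNF714 had 17.91 and ZNF627 had 17.67. ZNF235 had 17.29, ZNF543 and ZNF431 had 17.23 each, and ZNF547 had 17.17. ZNF547 shares its summit with an end of TRAPPC2B, which encodes a trafficking complex subunit; no other coding end lay at the remaining 9 summits. The strongest gene of the rest of chromosome 19 was MARCHF2, with 20.26, followed by RFX2 with 19.24 and C19orf47 with 19.08. By pileup the leaders were ZNF787 with 3647 fragments, ZNF837 with 3414, ZNF497 with 3400, ZNF584 with 3384 and ZNF446 with 3329. These 5 stood over local backgrounds of 208.5 to 251.3 fragments, with enrichments of 14.18 to 16.24. ZNF787 lay in cluster 9 of those described below, and the other 4 lay near the distal end of cluster 10.

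The signal sat at transcription starts. Strand and a listed start were known for 219 members. Of these, 151 (68.9%) had a summit at most 1000 bp from the start, against 64.7% of the 15842 coding genes with a listed start. The strongest of these summits lay at a median of 43 bases upstream of the start (quartiles 86 and 3 bases upstream), and 138 of the 151 (91.4%) lay within 200 bp of it. At the other end, where the finger-coding exon usually lies, 11 of 219 members (5.0%) had a summit, compared with 12.2% of coding genes and 20.1% of the other genes of chromosome 19. In 10 of the 11 the start had a summit as well. ZNF575 was the exception, with an enrichment of 1.98 at its 3′ end. Summits at the other end that also lay near a neighbouring gene were not left out, for members or for other genes. Those of ZNF766 and ZNF324 were the strongest summits at an end of ZNF480 and ZNF446. The part of gene spacing in these shares was not tested. ZNF274, which is known to bring SETDB1 to the 3′ ends of zinc finger genes, had summits at both of its own ends and a highest enrichment of 12.60 (pileup 1593).

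Intervals at members were short: those with the strongest summit spanned 255 to 1559 bp, with a median of 800 bp. The 153 accessible members shared 147 distinct strongest summits. At 22 members that summit also lay near an end of another coding gene, and at 14 of them the neighbour was itself a member. Head-to-head pairs included ZNF461 with ZNF567 (14.58), ZNF829 with ZNF568 (14.36), and ZNF490 with ZNF791 (14.83), named after their values were seen. For such pairs the summit cannot be assigned to a single gene. Counting only summits with no end of another coding gene nearby left 133 members (53.2%). This count was not made for other genes, so the drop has no background to be set against. Most accessible members had 1 summit near their ends. ZNF835 was the only one with 3, and its highest enrichment of 1.83 (pileup 38) was the lowest of any accessible member.

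Members close to the limit of 1000 bp were few. Just inside it, the nearest summits lay 850 bp from ZNF575 (enrichment 1.98) and 897 bp from ZNF491 (5.49). Just outside, they lay 1150 bp from ZNF574, 1175 bp from ZNF331 and 1204 bp from ZNF599. Over the 97 members without a summit, the nearest one was a median of 20059 bp away.

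Members in order along the chromosome formed 10 clusters of at least 5 genes with neighbours at most 500 kb apart, holding 236 members; the other 14 were scattered. The short arm ended at ZNF254, before the longest stretch without a coding gene (24129969 to 29205319, 5.08 Mb). On the short arm 46 of 84 members (54.8%) were accessible, and on the long arm 107 of 166 (64.5%). The order of the arms was the reverse for other coding genes, with 67.4% on the short arm and 59.8% on the long arm. The arm averages hid a wide spread between clusters, from 20.0% to 100%.

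**Figure D2:**
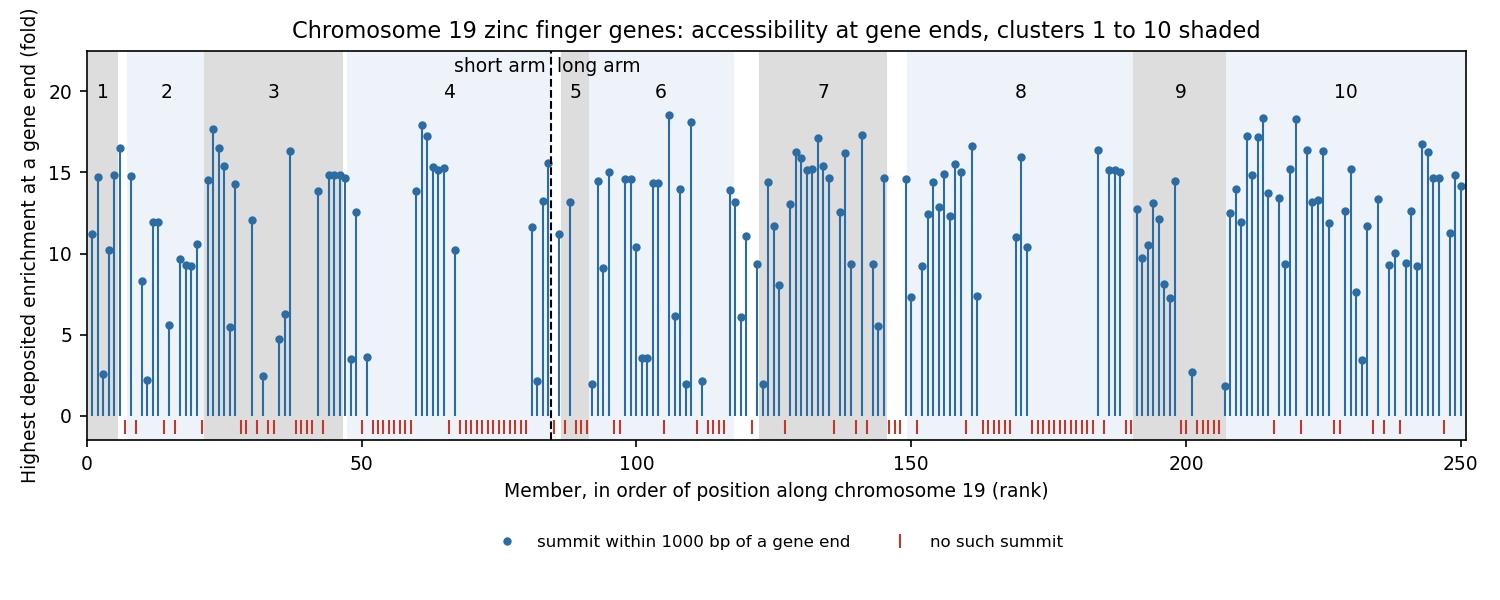
Highest deposited enrichment at a gene end (y axis, fold) for the 250 members in their order along chromosome 19 (x axis, rank), with clusters 1 to 10 shaded and the arms divided by a dashed line. Blue stems are accessible members and red ticks are members with no summit at an end; the ticks form long rows in clusters 4 and 8, where 23 members each had none.

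From its tip inwards, the short arm went from fully accessible to mostly closed. In cluster 1 (2819868 to 2944971) 5 of 5 members had a summit, from ZNF556 with 2.58 to ZNF77 with 14.87. ZNF57 in the same cluster had 10.22. In cluster 2 (8509678 to 9786160) 10 of 14 did (71.4%), with ZNF414 highest at 14.81, ZNF699 lowest at 2.2 and a cluster median of 9.46, the lowest of the 10. ZNF558, in cluster 2, had none, and the nearest was 19749 bp away. In cluster 3 (11483429 to 12633834) 15 of 25 did, with a median of 14.53 and a range from ZNF433 (2.44) to ZNF627 (17.67). Cluster 4 (19668153 to 24129968), the largest in length and next to the centromere, had 14 of 37 (37.8%).

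Cluster 4 was divided into blocks. ZNF93, a repressor of LINE-1 elements, opened a row of 8 members without a summit that ended at ZNF85 (19900946 to 20950697). Then came 6 neighbours that all had strong summits: ZNF430 (13.87), ZNF714 (17.91), ZNF431 (17.23), ZNF708 (15.36), ZNF738 (15.18) and ZNF493 (15.29). After ZNF429 (none) and ZNF100 (10.22), a row of 13 members without a summit ran from ZNF43 to ZNF91 (21804946 to 23395471), the longest on the chromosome. It includes ZNF208, ZNF257, ZNF492 and ZNF730. The 4 members nearest the centromere were accessible again: ZNF675 (11.63), ZNF681 (2.16, the lowest of the cluster), ZNF726 (13.26) and ZNF254 (15.61). None of the 23 members without a summit at an end had one anywhere in the gene. The span from ZNF43 to ZNF91 held 7 summits in 1.59 Mb, with a highest enrichment of 5.44, and no other coding gene.

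Accessible members of cluster 4 were few and low in pileup, but not low in enrichment. Their median enrichment was 13.57, close to the 13.20 of all members, at a median pileup of 341 over a median background of 26.6 fragments. Cluster 4 as a whole held 6.9 peak intervals per Mb, while the other clusters held 17.5 to 57.0. Copy number of the line in this region was not analysed here.

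On the long arm, cluster 5 (34675979 to 34964229) had a summit at the ends of 1 of 5 members, ZNF181 (13.17). The other 4, ZNF302, ZNF599, ZNF30 and ZNF792, each had a summit of 12.88 to 15.42 inside the gene. It lay 1617 bp from the nearest end in ZNF302, 3120 bp in ZNF30 and 3692 bp in ZNF792. In ZNF599 it lay deeper in the gene, and the summit 1204 bp from an end was a different one outside it. In cluster 6 (36182060 to 37779586) 18 of 26 members were accessible (69.2%), from ZNF875 (1.95) to ZNF585A (18.54) at their ends. Inside ZNF875, away from its ends, the highest enrichment was 15.94. Cluster 6 also held both intervals over 10 kb found within any of the clusters. They spanned 36268757 to 36309712 and 37269232 to 37303510 and carried 135 summits of the cluster's 164, at 22829 bp from ZNF565 and 9327 bp from ZNF875. Median enrichments in these intervals were 5.93 and 5.12. No member's count rested on intervals over 10 kb.

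Cluster 7 (43530835 to 44500522) had 19 of 23 accessible members (82.6%) and a median enrichment of 14.65. An unbroken row of 8 ran from ZNF45 (13.05) to ZNF224 (14.66), a gene whose protein is known to repress the aldolase A promoter, with ZNF223 (17.15) the highest in the row. ZNF180 had 14.65. The extremes of cluster 7 were ZNF575 (1.98) and ZNF235 (17.29). Cluster 10 (57191500 to 58489533), nearest the long-arm telomere, had 35 of 43 (81.4%), from ZNF587B (3.47) to ZNF548 (18.33). Its first 8 members, ZNF264 to ZNF17, all had summits.

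Cluster 8 (51571283 to 53580269) again fell into blocks, with 18 of 41 accessible (43.9%). A row of 8 accessible members, ZNF649 to ZNF616, had enrichments of 9.23 to 15.52. It was followed, after ZNF836 (none), ZNF766 (16.66, the highest of the cluster) and ZNF480 (7.36), by 6 members with none, ZNF610 to ZNF808. ZNF808, which is needed for pancreas development, had its nearest summit 1491 bp away. Then came ZNF701 (11.05), ZNF83 (15.96) and ZNF611 (10.40), and after them 12 members without a summit, ZNF600 to ZNF677 (52764164 to 53254873). That span of 0.49 Mb held 3 summits, all of them inside ZNF665, with a highest enrichment of 3.47. It contains 3 other coding genes, including the endogenous retroviral envelope genes ERVV-1 and ERVV-2, and these had no summit at an end either. The accessible members of cluster 8 had a median of 14.66, and ZNF175 was the lowest at 7.34.

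Cluster 9 (55476617 to 56671757) changed from open to closed along its length. Its first 8 members, ZNF628 to ZNF787, were all accessible, with ZNF787 (14.46) the highest and ZNF581 (8.11) and ZNF580 (7.28) the lowest of them. Of the 9 that followed, 2 were, ZNF583 (2.72) and ZNF835 (1.83). The 25 other coding genes in the span had a summit at an end in 10 cases. Across all clusters, 226 pairs of neighbouring members could be formed. In 101 pairs both had a summit, in 53 neither had, and 72 were mixed. Some neighbours share a start or summit, as ZNF765 with its read-through gene or ZNF461 with ZNF567, and are then the same site counted again. Neighbouring pairs of other coding genes were not counted, so these numbers have no background to be set against.

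**Figure D3:**
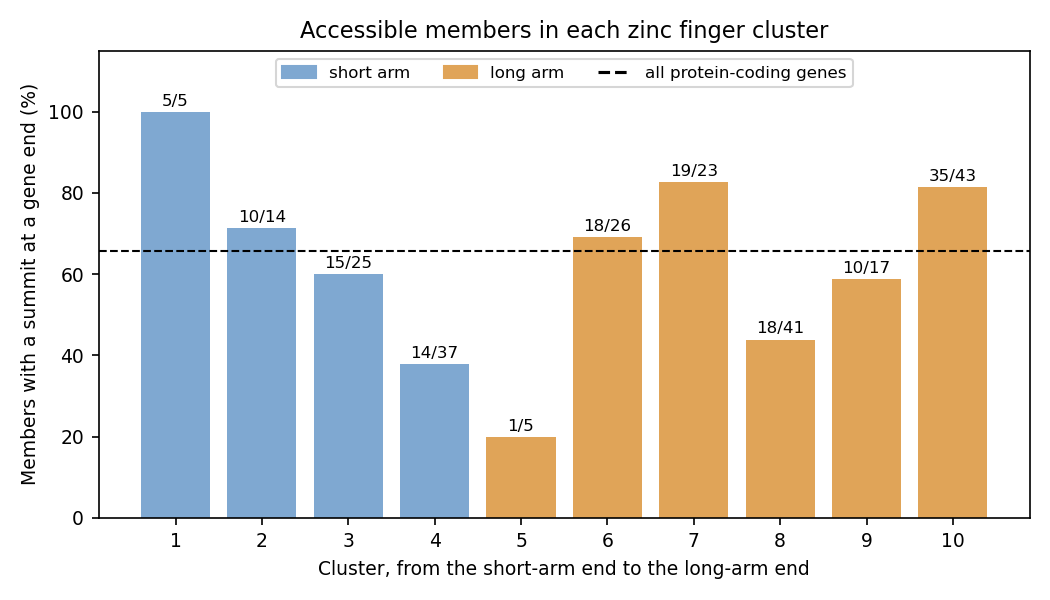
Share of members with a summit at a gene end (y axis, percent) in clusters 1 to 10 (x axis), with the counts above the bars, short-arm clusters in blue and long-arm clusters in orange. The dashed line is the 65.7% of all protein-coding genes; clusters 4 (37.8%), 5 (20.0%) and 8 (43.9%) lie lowest and clusters 1, 7 and 10 highest.

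Interspersed genes were counted in the same way. Inside the clusters, 35 of the 87 other coding genes (40.2%) had a summit at an end, compared with 726 of 1114 (65.2%) elsewhere on chromosome 19. Their median enrichment was 7.13, against 13.26 for the accessible members of the clusters. Genes with related names on chromosome 19 (ZFP, ZSCAN, ZIM, ZIK, ZKSCAN or ZBTB with a number) had a summit in 7 of 18 cases (38.9%), with a median of 3.52.

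Some members with closed ends had a summit elsewhere in their span, which can also be that of another gene. The only summit inside ZNF69 (12.1) was the one at the start of ZNF700, which lies within it. Of the 97 members without a summit at an end, 28 had one inside the gene, and 69 had none there or in the 1000 bp around it. The share with one inside was larger over all coding genes without a summit at an end (3381 of 6880). It was also larger over the other such genes of chromosome 19 (208 of 440). For 18 members, all chosen here after their values were seen, a summit lay at a start listed in the table inside the outermost ends. Among them were ZNF225 (17.07), ZNF749 (15.80), ZNF444 (15.60) and ZNF302 (15.42). ZNF331, an imprinted gene with several promoters, had 12 summits in its body with a highest enrichment of 15.59. Counting any gene end or listed start raised the members to 171 (68.4%) and all coding genes to 69.4%. Under that count cluster 5 had 3 of 5 members, whereas cluster 4 stayed at 37.8% and cluster 8 reached 46.3%.

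Promoter windows (250 bases before to 50 after the start) were matched for 219 members by gene identifier. The ratio of observed to expected CpG had a median of 0.79 in the 151 members with a summit at the start and 0.65 in the 68 without. Over all coding genes the corresponding medians were 0.85 and 0.33. A ratio of at least 0.6 was present in 83.4% of member windows with a summit and in 63.2% of those without (43 windows). Among all coding windows without a summit that share was 30.3%. In the class with a ratio of 0.8 or more, 69 of 91 member windows had a summit (75.8%), against 87.3% of 6993 coding windows.

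Clusters 4 and 8 differed in their CpG content. Windows of cluster 4 had a median ratio of 0.49 with a summit (11 windows) and 0.43 without (18), and 4 of 29 reached 0.6. In cluster 8 all 34 windows exceeded 0.6, with medians of 0.83 for the 17 with a summit and 0.85 for the 17 without. The medians with and without a summit were also close in cluster 3 (0.61 and 0.61), cluster 6 (0.79 and 0.78) and cluster 9 (0.82 and 0.84). The median with a summit was higher in cluster 2 (0.75 and 0.61), cluster 5 (0.92 and 0.76), cluster 7 (0.83 and 0.5) and cluster 10 (0.83 and 0.65). Windows without a summit were few there: 3, 1, 3 and 5. Without cluster 4, a split made after the values were seen, the medians over the members were 0.80 with a summit and 0.76 without. CpG content was higher with a summit over all members but not in every cluster. Its part in the result was not tested, and DNA methylation was not measured in these data.

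**Figure D4:**
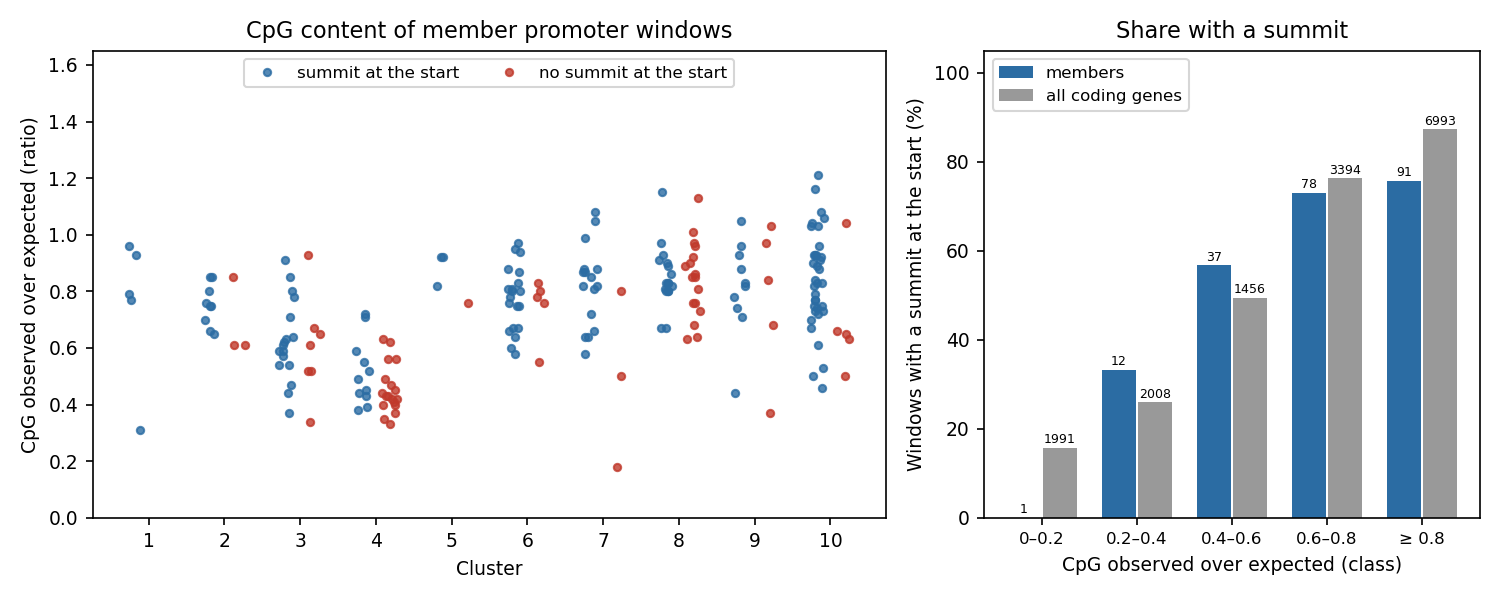
Left, ratio of observed to expected CpG (y axis) in the promoter windows of clustered members by cluster (x axis), blue with and red without a summit at the start; in cluster 4 both colours lie low and in cluster 8 both lie high. Right, share of windows with a summit (y axis, percent) by class of that ratio (x axis), members in blue and all coding genes in grey, with the number of windows above each bar; at 0.8 or more it was 75.8% for members and 87.3% for all coding genes.

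Short motifs were searched on both strands of the windows. The ETS core CCGGAAG was present in 99 member windows (45.2%) and in 14.2% of all coding windows. It occurred in 44.4% of member windows with a summit and 47.1% of those without. CCAAT was present in 53.9% of member windows and 36.4% of all, and in all 29 windows of cluster 4. The GC box GGGCGG was in 62.3% of member windows with a summit and 77.9% of those without, against 71.0% and 35.1% over all coding genes. The YY1 motif AAGATGGC was in 13 of the 151 windows with a summit (8.6%) and 1 of the 68 without (1.5%). Over all coding genes it was in 5.4% of windows with a summit and 1.1% without, or 3.9% of all. TGACGTCA, the cyclic AMP response element, was in 7 of the 151 and 0 of the 68. Over all coding genes it was in 3.4% with a summit and 1.0% without, or 2.6% of all. For both motifs the direction was thus the same over all coding genes. TGACTCA, the AP-1 site, was in 2.7% of member windows and 3.6% of all, and TATAAA in 2.3% and 9.7%. The NRF1 motif was in 6 member windows (1.8% of all had it) and the ZNF143 motif in 2 (0.4% of all). CCGGAAG can overlap GGGCGG or AAGATGGC, and a match is not evidence of binding.

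Windows with a stretch of sequence also found in another window were most frequent in cluster 4. Overlapping windows of 1 locus, as in head-to-head or read-through genes, were not left out of these counts. At least 1 stretch of 31 bases recurred in another coding promoter window in 41.2% of member windows without a summit and 25.8% of those with one, against 15.4% of all windows. In cluster 4 this was so for 16 of 18 windows without a summit and 9 of 11 with one, and in cluster 8 for 4 of 17 and 7 of 17. Without cluster 4 the share was 12 of 50 windows without a summit (24.0%) and 30 of 140 with one (21.4%), so the difference over all members rested on that cluster. More than 50% of the window was shared in 15 member windows, 12 of them with a summit. Most of these 15 overlap the window of a neighbour, as ZNF490 with ZNF791 (65.2%) and ZNF816 with its read-through gene (100%). Such overlap is the same sequence counted again and does not show sequence shared between copies. The treatment of reads that map to several places is not given in the sources used here, and the part of shared sequence in the calls was not tested.

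Members of the list with background reports of promoter methylation in tumours were mostly closed at their ends. Of 10, ZNF549 (18.29) and ZNF132 (11.26) had a summit at an end. ZNF154, ZNF382, ZNF471, ZNF582, ZNF671 and ZNF677 had none anywhere in the gene. ZNF529 (13.10) and ZNF331 (15.59) had summits inside the gene, and in both these values lay at a listed start, so a listed promoter was accessible. The share of 20.0% compares with 61.2% of all members, and the list was too short and too selected to support more than this count. ZNF536, a regulator of neuronal differentiation outside the clusters, had none at an end and 8 inside the gene, with a highest enrichment of 6.0. ZNF541, a germ cell gene, had none at an end and 2 inside with at most 1.88.

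The repression machinery used by KRAB zinc finger proteins was counted in the same way. Of 22 genes, 19 (86.4%) had a summit at an end, with a median of 13.74. The share over all coding genes was 65.7%. The list was short and chosen by hand, and the difference was not tested. TRIM28, itself on chromosome 19, had 14.97 with a pileup of 4564, and SETDB1 had 11.97. The HP1 genes CBX1, CBX3 and CBX5 had 13.91, 10.38 and 8.82. ATF7IP, a SETDB1 partner, had 15.23, and TASOR and MPHOSPH8 of the HUSH silencing complex had 12.29 and 13.78. ATRX and DAXX, a remodeller and a histone chaperone of heterochromatin, had 9.80 and 14.30. DNMT1, the maintenance DNA methyltransferase, had 14.49. CHD3, UHRF1 and EHMT2 had none at an end; CHD3 had 1 inside the gene (13.15) and UHRF1 had 8 (at most 10.18).

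As a check of the cell line, 9 of 10 mesenchymal markers had a summit at an end (all but NT5E, which had 5 inside the gene), against 2 of 8 epithelial and 2 of 7 blood markers and 65.7% of all coding genes. The height of the summits did not follow the same order. The median enrichment was 7.78 for the mesenchymal markers, and the blood summits stood at 8.44 (SPI1) and 10.21 (LCP1). Those of EPCAM (2.11) and CDH3 (2.2) were weak. Inside the gene, CDH1 reached 12.49, CDH3 7.21, and PTPRC and ITGAM 10.13 each. Over the whole list the lowest deposited −log10 q was 1.30, the 188019 summits had a median enrichment of 4.27, and chromosome 19 held 8374 of them.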

How the data were processed

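ATAC-seq was performed on 12 libraries of HT1080 cells in 3 collagen concentrations. The authors deposited 1 pooled peak list without a header. It gives a score, an enrichment ratio (fold over the local background), and p-values and q-values as −log10, deposited by the authors for each summit, with the summit's offset. The submitters' processing notes name fastp 0.20.0, Bowtie2 2.4.3, SAMtools, deepTools 3.5.0, MACS2 2.2.7.1 and the build hg38, with no order. Duplicate removal, the treatment of reads that map to several places and the use of a control are not given in the sources used here.

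Pileup and background were solved from the deposited enrichment, taken as (pileup + 1)/(background + 1), and the deposited −log10 p, taken as an upper Poisson tail. Pileups were whole within 0.05 in 99.96% of 188019 lines. The solver and the gene calls were tested on simulated data.

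Genes came from RefSeq (GRCh38.p14); the start of transcription was the listed promoter start nearest the outermost 5′ end. For 31 members no listed start was used. Arms were divided at the longest stretch without a coding gene. Python 3.11.15, pandas 2.3.3, scipy 1.17.1 and Biopython 1.88 were used; global alignments scored identity over all columns. The members and lists were chosen with earlier results of these data known. Named members are the 10 highest by enrichment, the highest and lowest of each cluster, the 5 highest pileups, members with 3 or more summits, and listed genes of known role, tumour methylation or repression; others are named as runs, pairs or exceptions after their values were seen. No groups of samples were compared and no test was run. The protein features that had been planned were not computed, as protein sequences were not used here.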

Additional observations from a re-analysis of the deposited data

Results flagged for a closer look

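Summits outside the sequence used for the members were also present: 16 alternate sequences of chromosome 19 carried 132 summits, above the limit that a count of 0 allows, with a median enrichment of 7.46 and a highest of 18.01. The chromosome itself carried 8374. The alternate sequences were not matched to members.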

How the results depend on the processing

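No paired analysis was possible because the pooled list has no value per library, and leaving out a replicate was not possible for the same reason. Of 42 alternatives over 7 results, 33 stayed within the 95% interval of the main value or, for the number of clusters, within 1.5 times. The intervals were Wilson for shares and binomial order statistics for the median. They treat genes as independent, although some share a summit, and they narrow as the number of genes grows. They thus serve as a yardstick only, and sets of different size cannot be ranked by it. Counting summits anywhere in the gene moved the members to 72.4%, the long-arm members to 78.3% and the other coding genes of chromosome 19 to 80.7%. Counting only summits with no other coding end nearby moved the members to 53.2%, a count made for members alone. The share of the other coding genes moved to 53.1% with 500 bp, 78.2% with 2500 bp, 55.6% at a −log10 q of at least 10 and 68.2% when any overlap of the interval counted. The median as a pileup was 545.0 fragments in place of an enrichment, and it was counted as moved without a comparison, as the units differ. At a −log10 q of at least 10 the members' share was 57.2%, and cluster 4 and cluster 8 stood at 35.1% and 43.9%. The number of clusters was 9 to 12. The alternatives with plain symbols, without intervals over 10 kb, with any listed start and with 2500 bp around the start were chosen after the data were seen. Without depth per library, weak sites cannot be separated from absent ones.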
